A study of Mus musculus with 30 samples.

Results

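The 43 genes described here belong to the machinery of the cell cycle: 18 act in DNA replication, 24 in the G2 phase and mitosis, and the remaining gene is Ccnd1, a cyclin of the G1 phase. They were chosen by symbol from a list of cell cycle genes, each matched to 1 Ensembl identifier among the 46078 genes of the deposited count table. All 43 were matched, and all 43 were among the 13880 genes that passed the filter on low counts and were tested. No measured value entered the choice of members, but the list was drawn up with earlier results of these data known.

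A cell about to divide first loads the MCM helicase onto its DNA with the help of Cdc6 and Cdt1, and cyclin E (Ccne1, Ccne2) and the transcription factor E2f1 drive entry into S phase. There the sliding clamp Pcna, the nucleotide enzymes Rrm1, Rrm2, Tyms and Tk1 and the helicase factor Cdc45 serve DNA synthesis. In G2 and mitosis, Foxm1 and its partners drive transcription of cyclins A and B, Cdk1 and the Aurora and Polo kinases. The spindle checkpoint kinases Bub1 and Bub1b, the motors Kif11 and Kif23 and the centromere proteins Cenpe and Cenpf then part the chromosomes, which Mki67 coats. Microglia, the resident macrophages of the brain and spinal cord, divide rarely in the healthy adult and expand in number by local division when the tissue is inflamed.

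The libraries hold RNA of microglia from C57BL/6 mice, some of them with experimental autoimmune encephalomyelitis (EAE), an autoimmune inflammation of the brain and spinal cord. The design sets microglia without Atg7, an enzyme needed to build autophagosomes, against wild type cells of young mice. It also sets wild type cells of old mice against those of young mice. The 30 libraries fell into 8 groups: naive WT (4 libraries), naive KO (4), naive old (4), day 21 WT (3), day 21 KO (4), day 35 WT (4), day 35 KO (4) and day 35 old (3), where the day counts from the induction of EAE and naive mice had none. The KO genotype was Atg7fl/fl Cx3cr1CreERT; the controls called WT carried Atg7wt/wt Cx3cr1CreERT2, so that recombination followed the Cx3cr1 promoter, which is active in microglia and also in other macrophages and monocytes. These mice received 4 mg of tamoxifen 3 times, 48 h apart, and EAE was started at least 18 days later with recombinant MOG (residues 1 to 125) under the skin and pertussis toxin. WT and KO mice were young and the old mice were Atg7 wild type; the labels give age only in these words and do not say whether old mice carried Cre or received tamoxifen. Cells were sorted as live, CD11b+, CD45 intermediate, Ly6G- and/or eYFP+, and the cells of female and male mice were pooled 1:1. The labels do not say whether the libraries of a group came from separate mice and sorts, so the p-values measure only the spread between these libraries.

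The libraries held 4712803 to 11034565 counts (median 6769302). Levels are given as CPM, counts scaled to a common library size. The summed CPM of 12 microglial markers lay between 18810 and 33550 in 24 libraries, between 10620 and 11330 in the 4 day 21 KO libraries, at 13890 in day 35 KO replicate 4 and at 9951 in day 35 old replicate 1. The last of these stood apart, with a sum of 12 neutrophil markers of 32190 CPM, whereas the other day 35 old libraries had 2466 and 690.2 CPM. The microglial sum includes Cx3cr1, whose promoter drives Cre in the WT and KO mice. Cx3cr1 had a mean of 2574 CPM in naive WT, 168.8 in naive KO and 4254 in naive old. Naive WT replicate 3 had the highest neutrophil sum of its group, 16780 CPM, against 2011 to 9350 CPM in the others. Day 35 WT replicate 3 carries a wild type title but a knockout status of KO, and was kept as WT. Atg7, the targeted gene, had 31.6 ± 6.32 CPM in naive WT and 20.2 ± 8.62 in naive KO (SD, n = 4 each). It had 23.2 ± 3.03 (n = 3) and 32.8 ± 2.74 CPM (n = 4) in day 21 WT and KO, and 22.55 ± 1.41 and 32.5 ± 1.54 CPM (n = 4 each) in day 35 WT and KO. None of these 3 differences passed the test (edgeR, adjusted p = 0.516, 0.303 and 0.338). The deleted exons are not given in the labels and counts are per gene, so these values do not check the knockout.

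Promoters of the members differed in short motifs that are bound by cell cycle regulators, and 5 are printed because they show this most plainly; they were chosen after their letters were seen. RefSeq promoter sequences (build GRCm38.p6) were found for 36 of the 43 members, and not for Foxm1, Mcm4, Ccnd1, Aurkb, Ccna2, Ccne2 and Tpx2. In the 250 bases before the start, both strands were searched for the E2F motif (TTTCCCGC, TTTCGCGC, TTTGCCGC or TTTGGCGC), the cell cycle homology region, CHR (TTTGAA or TTCGAA), and the CCAAT box (CCAAT). Each sequence is a 200-base stretch read 5′ to 3′ on the gene's strand, with matches on either strand in capitals. Mcm5 (chr8:75109309-75109508, plus strand) and Mcm6 (chr1:128359706-128359905, minus strand) held E2F and CCAAT motifs and no CHR in this stretch; where 2 E2F matches on opposite strands overlap they form 1 run of capitals. Cdk1 (chr10:69352939-69353138, minus strand) held all 3 motifs, and Ccnb2 (chr9:70421555-70421754, minus strand) and Top2a (chr11:99024190-99024389, minus strand) held CHR and CCAAT motifs.
Mcm5: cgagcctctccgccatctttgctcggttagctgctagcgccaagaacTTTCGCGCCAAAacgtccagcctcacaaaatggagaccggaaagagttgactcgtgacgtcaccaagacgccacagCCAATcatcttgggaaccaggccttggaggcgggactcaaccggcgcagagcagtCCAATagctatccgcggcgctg
Mcm6: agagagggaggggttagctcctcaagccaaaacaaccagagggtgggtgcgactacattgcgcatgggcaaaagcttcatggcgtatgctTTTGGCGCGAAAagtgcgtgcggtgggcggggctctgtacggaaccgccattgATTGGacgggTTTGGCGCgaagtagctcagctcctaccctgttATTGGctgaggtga
Cdk1: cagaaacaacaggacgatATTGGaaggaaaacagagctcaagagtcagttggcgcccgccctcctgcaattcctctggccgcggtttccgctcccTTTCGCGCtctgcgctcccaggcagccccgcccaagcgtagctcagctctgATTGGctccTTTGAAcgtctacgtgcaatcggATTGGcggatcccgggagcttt
Ccnb2: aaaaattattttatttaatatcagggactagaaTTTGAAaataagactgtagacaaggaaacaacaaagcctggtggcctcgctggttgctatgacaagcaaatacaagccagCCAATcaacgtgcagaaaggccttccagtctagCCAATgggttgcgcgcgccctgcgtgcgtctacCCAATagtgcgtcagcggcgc
Top2a: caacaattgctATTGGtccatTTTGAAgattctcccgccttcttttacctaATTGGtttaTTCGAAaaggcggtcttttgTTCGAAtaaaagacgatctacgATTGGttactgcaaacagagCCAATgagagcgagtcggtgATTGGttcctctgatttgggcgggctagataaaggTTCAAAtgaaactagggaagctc

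The E2F motif was present in 5 of 18 promoters of replication members (27.8%) and in 1 of 21 of mitosis members (4.76%), beside 3.29% of the promoters of all genes tested and 1.86% of all promoters of that length. A CHR was present in 3 of 18 replication promoters (16.7%) and in 10 of 21 mitosis promoters (47.6%). Beside these stood 12.5% for the genes tested and 17.1% of all promoters, so the replication share was near the latter. A CCAAT box was present in 12 replication promoters (66.7%) and 19 mitosis promoters (90.5%), beside 34.9% and 33.8%. The 18 replication promoters belong to 16 genes and the 21 mitosis promoters to 20. The 10 mitosis promoters with a CHR all held a CCAAT box as well, a pair found in 4.73% of the promoters of the genes tested. These are matches of letters, not measured binding.

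Across the 8 groups, both classes were most abundant in the day 21 KO libraries and least abundant in the day 35 WT libraries. By group mean, day 35 WT was the lowest group for 24 of 24 mitosis members and for 13 of 18 replication members, and day 21 KO was the highest for 16 of 24 and 12 of 18. The summed CPM of the 24 mitosis members was 146.6, 370.6, 934.4 and 457.9 in naive WT, 319.8, 293.2, 291.7 and 166.3 in naive KO, and 569.0, 461.7, 545.0 and 1049 in naive old. At day 21 it was 334.8, 131.6 and 143.5 in WT and 797.0, 938.5, 1047 and 1036 in KO. At day 35 it was 117.8, 119.4, 69.67 and 59.32 in WT, 155.98, 214.7, 160.7 and 447.0 in KO, and 2363, 196.2 and 142.9 in the old mice. The 4 day 21 KO libraries lay close together and above every day 21 WT and day 35 WT library, whereas naive WT spanned a wide range and day 35 old rested on 1 library, replicate 1. In bulk libraries, more dividing cells and more of these transcripts per cell cannot be told apart.

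Replication members varied less. Their summed CPM was 231.4 to 364.3 in naive WT, 225.7 to 269.8 in naive KO and 312.5 to 409.8 in naive old. It was 222.7 to 282.9 in day 21 WT, 397.4 to 466.6 in day 21 KO and, at day 35, 197.6 to 219.1 in WT, 241.2 to 291.7 in KO and 230.0 to 588.0 in the old mice. The ratio of the mitosis sum to the replication sum was 2.01 to 2.46 in day 21 KO, 0.591 to 1.18 in day 21 WT, 0.300 to 0.594 in day 35 WT, 0.639 to 1.53 in day 35 KO and 0.633 to 2.57 in naive WT. Day 35 old replicate 1 reached 4.02. These sums rest largely on a few long or abundant transcripts. Per kb of exon, the day 21 KO mean was 37.8 CPM for Mki67, 22.1 for the helicase subunit Mcm3, 18.1 for Ccnd1, 14.6 for Pcna and 13.5 for the topoisomerase Top2a, and 0.662 for Ccnb1, the lowest of the 43.

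**Figure D1:**
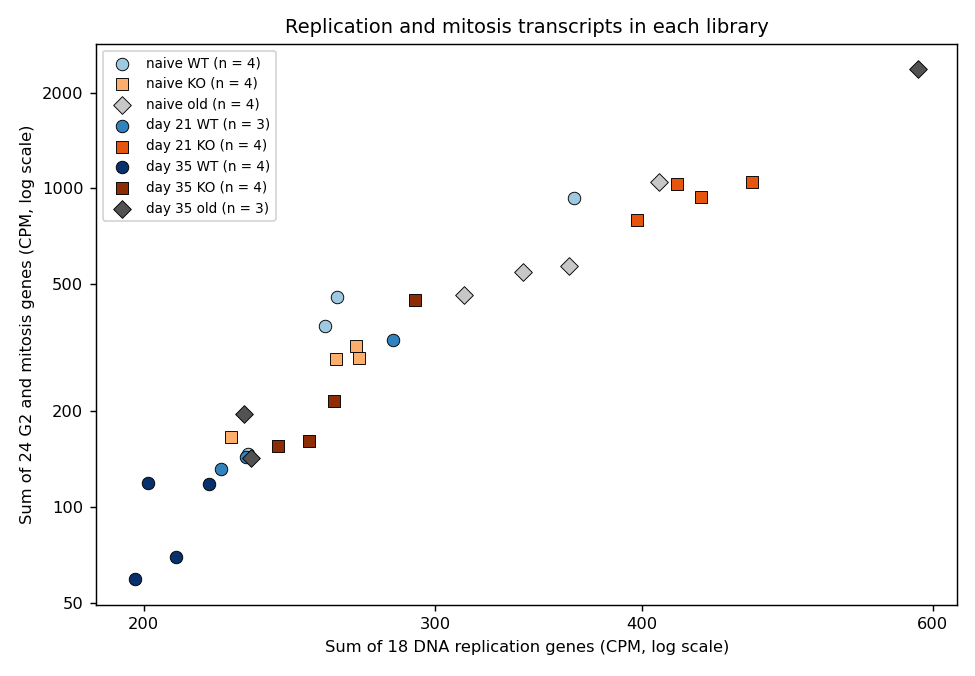
Summed CPM of the 24 mitosis members (vertical, log scale) against that of the 18 replication members (horizontal, log scale), 1 point per library coloured by group. The 4 day 21 KO points lie together between 797.0 and 1047 CPM on the vertical axis, the day 35 WT points lie lowest, and day 35 old replicate 1 stands apart at 2363 CPM.

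At day 21, the KO libraries held more RNA of the cell cycle than the WT libraries: 26 of the 43 members were higher and none was lower. Of all genes tested 9.18% were called higher and 9.86% lower (edgeR quasi-likelihood test, Benjamini-Hochberg adjusted p under 0.05). All 43 log2 fold changes were positive, with a median of 1.94 against 0.00 over all genes tested. For 38 members every KO library lay above every WT library, beside 20.5% of all genes tested. Of the 18 replication members 9 rose (median 1.20), and of the 24 mitosis members 17 rose (median 2.12). Among replication members, E2f1, Ccne1, Cdt1, Mcm2, Mcm5 and Mcm6 kept their call under every alternative that was run, including each library left out in turn. The mitosis calls went from 17 to 1 without day 21 WT replicate 2 and to 0 without replicate 3 (7 and 6 calls in all). Mitosis calls numbered 11, 10, 9 and 8 without day 21 KO replicates 1, 2, 3 and 4, and replication calls numbered 15 without day 35 old replicate 1.

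E2f1 (ENSMUSG00000027490, chr2:154559407-154569892), the activator of S phase genes, had 4.86, 4.39 and 5.70 CPM in the day 21 WT libraries and 9.58, 16.1, 16.7 and 16.3 CPM in the KO libraries. All KO libraries lay above all WT libraries, with KO replicate 1 the lowest of the 4, and the difference was 1.55 on the log2 scale (SE 0.323, 2.92-fold, adjusted p = 0.00131). Ccne1 (ENSMUSG00000002068, chr7:38097984-38107534), the cyclin that opens S phase with Cdk2, had 2.35, 2.34 and 1.96 CPM in WT and 7.38, 9.65, 8.11 and 9.93 CPM in KO. The groups did not overlap, and the log2 fold change was 1.98 (SE 0.481, adjusted p = 0.00456). The naive libraries of both genotypes bear on the level of Ccne1: they held 0.704 to 3.29 CPM in WT and 0.515 to 0.880 CPM in KO.

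Mcm5 (ENSMUSG00000005410, chr8:75109569-75128439), a subunit of the replicative helicase, had 14.4, 7.32 and 8.60 CPM in WT and 33.3, 27.8, 31.4 and 27.3 CPM in KO. Of the other helicase subunits Mcm2 rose by 1.20 on the log2 scale (SE 0.296, adjusted p = 0.00542) and Mcm6 by 1.13 (SE 0.273, adjusted p = 0.00499), and Mcm4 and Mcm7 also rose. Mcm3, the most abundant subunit per kb, had 77.7, 69.0 and 80.9 CPM in WT and 78.4, 86.6, 87.5 and 79.4 CPM in KO, and its log2 fold change of 0.13 did not pass the test (adjusted p = 0.445). Its groups overlapped, unlike those of the other 5 MCM subunits. The loading factor Cdt1 rose by 1.01 (SE 0.217, adjusted p = 0.00163), and the second cyclin E gene, Ccne2, rose as well.

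Pcna (ENSMUSG00000027342, chr2:132249162-132253314), the sliding clamp that also serves DNA repair, had 29.0, 38.2 and 27.6 CPM in WT and 34.4, 34.7, 37.7 and 33.5 CPM in KO. These overlapped, and the log2 fold change of 0.15 (SE 0.209) did not pass the test (adjusted p = 0.651). The ribonucleotide reductase subunit Rrm2 had 5.02, 1.17 and 2.53 CPM in WT and 11.3, 13.5, 13.4 and 13.9 CPM in KO. Although its groups did not overlap, the fitted difference of 2.19 had an SE of 0.960 and an adjusted p of 0.115; it passed the test without day 35 old replicate 1 (0.0346) and in a fit on the day 21 libraries alone (1.32e-05). Tk1, Uhrf1, Rrm1, Cdc6, Tyms and Cdc45 did not pass the test either, with log2 fold changes of 0.75 to 2.02.

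Mki67 (ENSMUSG00000031004, chr7:135689784-135716361), the protein used as a marker of dividing cells, had 127.4, 42.6 and 53.6 CPM in the day 21 WT libraries and 324.7, 398.6, 409.3 and 389.1 CPM in the KO libraries. Every KO library lay above every WT library, and the log2 fold change was 2.36 (SE 0.824, 5.13-fold, adjusted p = 0.0481). That call lay at the threshold. Of the fits that left out 1 library, it held in those without naive WT replicates 1 or 3, naive old 4, day 35 old 1, 2 or 3, day 35 KO 4 or day 35 WT 4. It was lost in the other 22, with log2 fold changes of 2.08 to 2.98. It was also lost without the filter on low counts (adjusted p = 0.101).

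Top2a (ENSMUSG00000020914, chr11:98992943-99024189), which untangles sister DNA strands, had 39.9, 17.0 and 13.1 CPM in WT and 110.1, 110.4, 131.6 and 136.2 CPM in KO (log2 fold change 2.41, SE 0.778, adjusted p = 0.0326). Day 21 WT replicate 1 was the highest WT library for Mki67 and Top2a and still lay below all KO libraries. Foxm1 (ENSMUSG00000001517, chr6:128362967-128376146), the transcription factor of G2 genes, had 13.4, 6.59 and 4.21 CPM in WT and 30.3, 32.7, 39.8 and 42.4 CPM in KO, a log2 fold change of 2.21 (SE 0.531, adjusted p = 0.00543). Of the alternatives run, its call was lost without day 21 WT replicate 3. Bub1b (2.20, adjusted p = 0.0129), Ccnf (1.92, 0.0170), Birc5 (2.63, 0.0214) and Aurkb (1.94, 0.0223) rose too, and each lost its call without day 21 WT replicate 2 or 3.

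Cdk1 (ENSMUSG00000019942, chr10:69335146-69352938), the kinase that starts mitosis, had 4.02, 3.51 and 4.49 CPM in WT and 8.95, 11.3, 13.7 and 13.2 CPM in KO, and its log2 fold change was 1.55 (SE 0.512, adjusted p = 0.0344). The cyclins that pair with it did not all pass the test. Ccnb1 had 0.670, 0.439 and 0.561 CPM in WT and 3.30, 2.78, 3.61 and 1.48 CPM in KO (log2 fold change 2.29, SE 0.742, adjusted p = 0.0292). Ccna2 had 9.88, 3.22 and 2.81 CPM in WT and 17.9, 14.1, 22.2 and 21.9 CPM in KO (1.89, SE 0.830, adjusted p = 0.115), and passed without day 35 old replicate 1 (0.0202) and in a fit on the day 21 libraries alone (0.00468). Both cyclins were higher in every KO library than in any WT library. Single libraries ended other calls. That of Top2a was lost without day 21 KO replicate 3 or 4 or WT replicate 2 or 3. That of Ccnb1 was lost without day 21 KO 1 or 3 or any WT library, and that of Cdk1 was lost without day 21 KO 2, 3 or 4 or any WT library.

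The other mitosis members called were Plk1, Cenpf, Cenpe, Ccnb2, Ube2c, Kif11, Aurka and Bub1. Nusap1, Tpx2, Hmmr, Cdc20, Prc1 and Kif23 did not pass the test, with log2 fold changes of 1.80 to 2.30 and no overlap between the groups. The count of 26 moved to 17 without day 21 KO replicate 3 or without replicate 4, to 39 without day 35 old replicate 1, and to 13 without the filter on low counts. With DESeq2 it was 35. Ccnd1 (ENSMUSG00000070348, chr7:144929931-144939925), which carries growth signals into G1, had 73.0, 55.5 and 62.4 CPM in WT and 98.6, 85.2, 88.4 and 68.5 CPM in KO, and its log2 fold change of 0.42 (SE 0.164) did not pass the test (adjusted p = 0.0705). It passed without naive old replicate 4, without day 21 KO replicate 4, the lowest KO library, and in a fit on the day 21 libraries alone (0.00931).

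**Figure D2:**
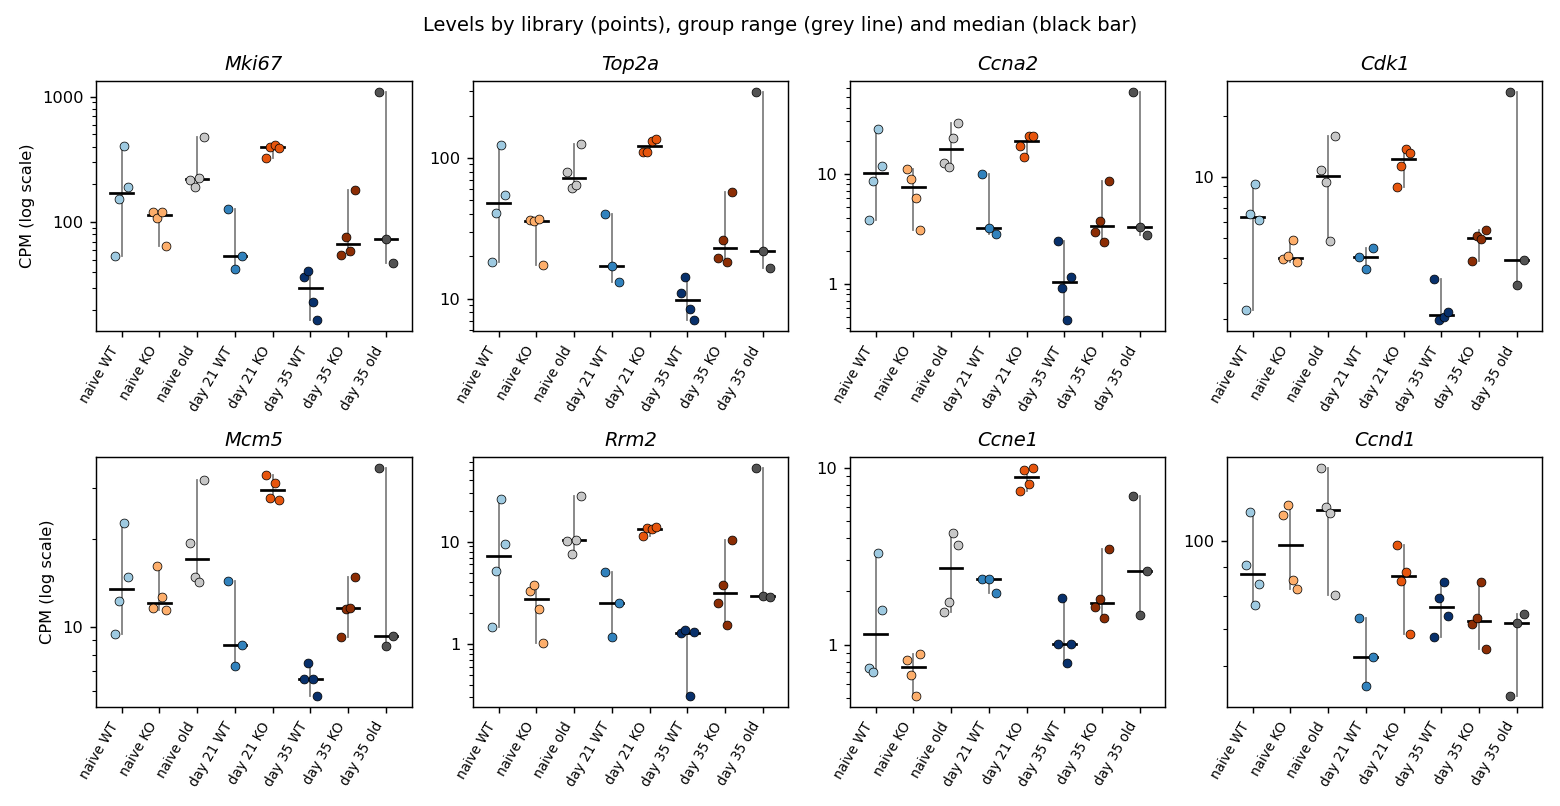
CPM (vertical, log scale) of 8 members by group, with 1 point per library, the group range as a grey line and the median as a black bar. For Mki67, Top2a, Ccna2, Cdk1, Mcm5, Rrm2 and Ccne1 all day 21 KO points lie above all day 21 WT points, whereas those of Ccnd1 overlap.

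Cell cycle genes outside the 43 moved in the same comparison. Of 44 other replication genes 20 rose and none fell (median 0.75). Among them were the fork protection factor Timeless (1.90, SE 0.342, adjusted p = 0.000311), the polymerase epsilon subunit Pole (2.25, SE 0.461, 0.00133), the primase subunit Prim2 (1.00, SE 0.222, 0.00228) and the flap endonuclease Fen1 (0.95, SE 0.223, 0.00343). Of 60 other mitosis genes 20 rose and none fell (median 1.56), led by the kinesin Kif22 (2.69, SE 0.705, adjusted p = 0.00953), Cdc25b (1.32, SE 0.373, 0.0133), Nek2 (2.20, SE 0.634, 0.0154) and the condensin subunit Ncapd2 (1.37, SE 0.402, 0.0193). Without day 21 WT replicate 2 the last 4 lost their calls, and without replicate 3 Kif22, Nek2 and Ncapd2 did. Of 27 G1 regulators and CDK inhibitors tested, 5 rose and 3 fell. The CDK inhibitor Cdkn1a, which slows the cycle, had a mean of 12.5 ± 1.65 CPM in WT (n = 3) and 53.2 ± 4.04 CPM in KO (SD, n = 4) and rose by 2.09 (SE 0.264, adjusted p = 6.08e-06). The G1 cyclin Ccnd2 rose by 2.51 (SE 0.523, adjusted p = 0.00156), while the inhibitor Cdkn1c fell by 1.65 (SE 0.352, 0.00155) and Ccng2, a cyclin linked to cell cycle arrest, fell by 0.71 (SE 0.111, 6.21e-05). Thus the CDK inhibitors did not move one way.

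Markers of several cell types moved together with these genes at day 21. Of 12 monocyte markers 8 rose, and their sum was 186.0 to 514.5 CPM in WT and 2269 to 3130 CPM in KO, most of it Fn1 (mean 283.3 and 2085 CPM). Of 9 T and NK cell markers tested 7 rose, with a sum of 5.24 to 7.20 CPM in WT and 22.6 to 36.0 CPM in KO; Cd3e had 2 counts over the 3 WT libraries and 98 over the 4 KO libraries. Of 10 border macrophage markers 4 rose (32.6 to 80.9 CPM in WT, 212.8 to 251.2 in KO). Of 12 microglial markers 11 fell (19650 to 22620 CPM in WT, 10620 to 11330 in KO). Neutrophil markers were few in both groups apart from Csf3r, which made up most of a sum of 699.4 to 725.1 CPM in WT and 482.2 to 604.3 CPM in KO and fell (1 of 12); Ly6g had 2 counts in each group.

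Erythroid markers had 26.0 to 82.1 CPM in WT and 1.57 to 5.04 in KO (5 of 6 tested fell), and B and plasma cell markers 234.1 to 255.4 and 110.7 to 140.8 (2 of 3 fell). Neuronal markers had 21.9 to 55.9 and 4.87 to 6.67 (1 of 4 fell), and endothelial markers 56.3 to 58.7 and 56.1 to 59.4 (1 of 5 fell). Of the dendritic cell (6 tested), granulocyte progenitor (6), oligodendrocyte (7) and astrocyte (8) markers none passed the test. Their sums were 33.7 to 36.2, 0.502 to 0.732, 152.03 to 287.0 and 299.8 to 343.8 CPM in WT, and 32.4 to 34.9, 2.67 to 5.19, 113.8 to 129.4 and 216.3 to 237.1 CPM in KO. Cd209f and Ms4a3 had no count in either group. The share of mitochondrial counts was 6.41 to 8.26% in WT and 8.35 to 9.12% in KO. The part of these cell types in the cell cycle difference was not tested.

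**Figure D3:**
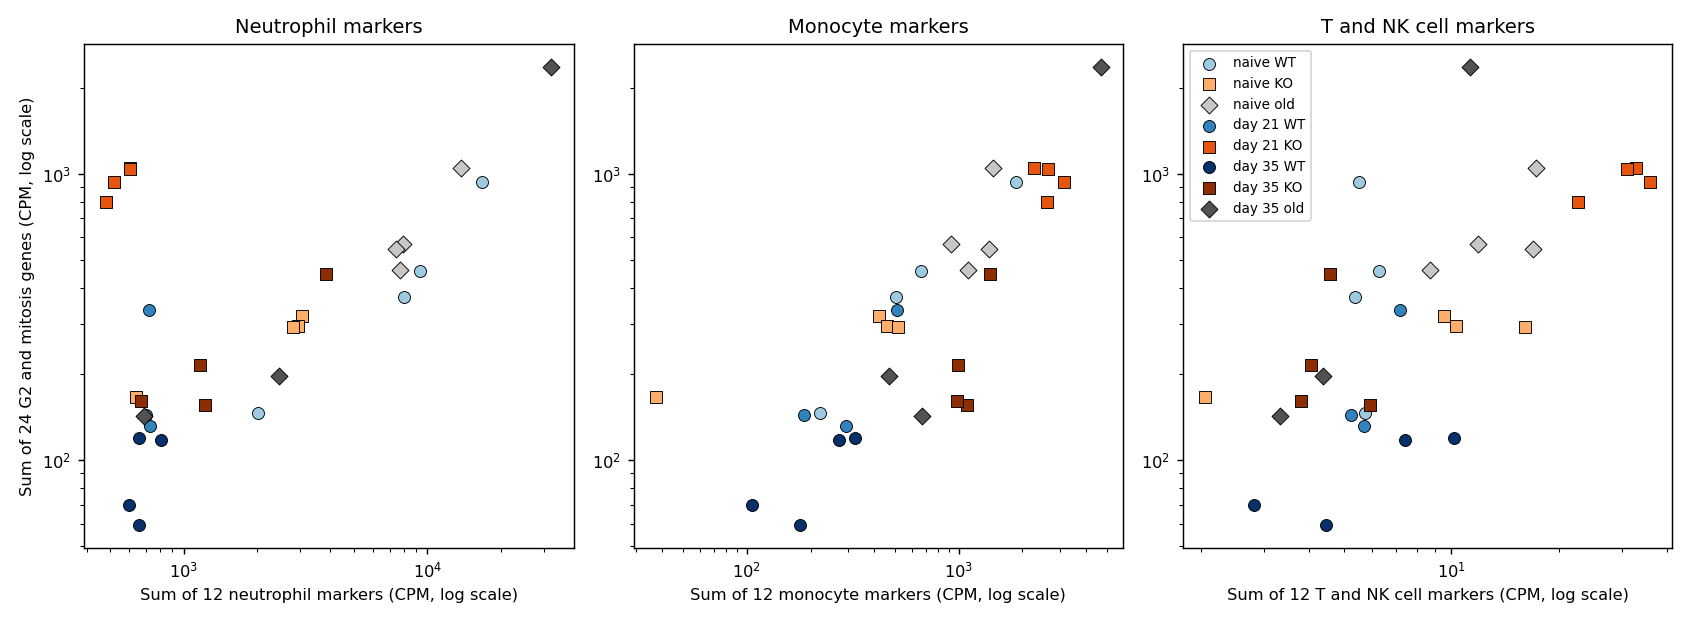
Summed CPM of the mitosis members (vertical) against the summed CPM of neutrophil, monocyte, and T and NK cell markers (horizontal, 1 panel each), 1 point per library on log scales. Day 35 old replicate 1 has the highest mitosis and neutrophil sums, at 2363 and 32190 CPM, while the day 21 KO libraries combine mitosis sums of 797.0 to 1047 CPM with neutrophil sums of 482.2 to 604.3 CPM.

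Within KO mice many of the cell cycle genes rose from the naive state to day 21 and fell by day 35; these comparisons and that with day 21 WT share the day 21 KO libraries. From naive to day 21, 30 of 43 members rose and none fell, 13 of them replication and 17 mitosis members. Of all genes 22.5% were called higher and 22.7% lower. The median of the 43 was 1.59, against 0.01 over all genes, and 39 members did not overlap, beside 22.8% of all genes. E2f1 rose from 3.14, 3.48, 2.32 and 2.79 CPM in the naive KO libraries by 2.31 (SE 0.305, adjusted p = 6.16e-07), and Ccne1 by 3.58 (SE 0.485, 9.81e-07). The thymidine kinase Tk1 rose by 2.06 (SE 0.423, 0.000269), Cdt1 by 0.88 (0.000603), Mcm2 by 1.02 (0.00269) and Mcm5 by 1.20 (0.00541). Pcna, with 26.2, 19.6, 18.8 and 33.3 CPM in naive KO, rose by 0.52 (adjusted p = 0.0293) and Rrm2 by 2.31 (0.0330). The replication genes thus differed widely in size of change, from 0.03 for Mcm3, which did not pass, to 3.58 for Ccne1.

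Of the mitosis members, Bub1b (2.41, SE 0.543, adjusted p = 0.000947), Cenpe (2.37, SE 0.616, 0.00332), Foxm1 (1.67, 0.00494), Aurka (1.98, 0.00532) and Aurkb (1.72, 0.00934) rose with the lowest adjusted p from naive KO to day 21 KO. Mki67, at 121.4, 107.7, 119.7 and 64.5 CPM in naive KO, rose by 1.88 (0.0381), Top2a by 1.95 (0.0224), Cdk1 by 1.49 (0.0103) and Ccnb1 by 1.76 (0.0257). Ccna2 (1.38, 0.124) and Ccnd1 (-0.22, 0.246) did not pass; Ccna2 passed without day 35 old replicate 1 and in a fit on both KO groups alone (0.00318). The 30 calls were 21 to 40 with each library left out, and the mitosis calls fell from 17 to 11 without naive KO replicate 4, the lowest naive KO library. Calls were lost for Pcna without naive KO 2 or 3 or day 21 KO 3 and for Top2a without naive KO 4. They were lost for Ccnb1 without naive KO 2 or 3 or day 21 KO 1 or 3. For Mki67 the call was lost without any naive KO library or day 21 KO 2, 3 or 4, and for Rrm2 without naive KO 1, 3 or 4 or day 21 KO 2, 3 or 4.

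In that comparison 25 of 44 other replication genes rose and 1 fell, with Timeless (3.04, adjusted p = 2.28e-08) and the clamp loader subunit Rfc2 (0.79, 1.69e-06) first. In it 37 of 60 other mitosis genes rose and 1 fell, with Iqgap3 (1.21, 2.45e-05) and the transcription factor Mybl2 (2.65) among them. Of the G1 regulators 8 rose and 7 fell, including Ccng2 (-0.97, 1.69e-08) and Cdkn1c (-2.54, 4.53e-07). Of the markers, 11 of 12 neutrophil and 11 of 12 microglial markers fell, 4 of 9 T and NK cell and 3 of 12 monocyte markers rose, and of 10 border macrophage markers 2 rose and 3 fell. Neutrophil sums were 637.5 to 3064 CPM in naive KO and 482.2 to 604.3 CPM in day 21 KO. The part of these cell types in the rise was not tested. The share of mitochondrial counts was 2.45 to 4.89% in naive KO.

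From day 21 to day 35, 30 of 43 members fell in the KO libraries and none rose, 11 of them replication and 19 mitosis members. Of all genes 11.7% were called lower and 13.3% higher. The median was -1.64, and 39 members did not overlap, beside 16.3% of all genes. At day 35 the KO libraries held 3.27, 5.39, 4.51 and 5.59 CPM of E2f1, all below the day 21 KO libraries, a fall of 1.64 on the log2 scale (SE 0.295, adjusted p = 0.000191). Cdt1 fell by 0.93 (0.00102), Ccne1 by 2.06 (0.00103), Mcm2 by 1.26 (0.00131), Mcm6 by 1.05 (0.00303) and Mcm5 by 1.34 (0.00565). Rrm2 (-1.49, 0.195), Pcna (0.26, 0.332) and Ccnd1 (-0.22, 0.310) did not pass the test. Pcna thus had 41.9, 46.9, 34.8 and 44.8 CPM at day 35 against 33.5 to 37.7 CPM at day 21, groups that overlapped while the other replication factors named here were lower in every day 35 library.

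Mki67 had 54.7, 75.6, 58.6 and 180.0 CPM at day 35 in KO, lower than all day 21 KO libraries by 2.04 on the log2 scale (SE 0.728, adjusted p = 0.0434), with replicate 4 apart from the other 3. Day 35 KO replicate 4 also had the highest neutrophil sum of its group, 3841 CPM, against 666.6 to 1222 CPM in the others. The part of these markers was not tested. Foxm1 fell by 1.99 (SE 0.471, 0.00359), Bub1b by 1.94 (0.0103), Aurkb by 1.82 (0.0134), Ccnf by 1.65 (0.0166), Plk1 by 2.05 (0.0179) and Ccnb1 by 2.15 (0.0180). Top2a fell by 1.99 (0.0353), Cdk1 by 1.28 (0.0418) and Ccna2 by 2.09 (0.0463). The number of members called was 12, 13 and 14 without day 35 KO replicates 1, 2 and 3, 17 and 18 without day 21 KO replicates 3 and 4, and up to 37 with another library left out. Mitosis members accounted for most of this, with 4, 6 and 5 calls without day 35 KO 1, 2 and 3, and 11, 9 and 10 without day 21 KO 2, 3 and 4. Replication members went from 11 to 7 without day 35 KO replicate 2. The call on Ccnf was lost without day 35 KO 3, on Plk1 without day 35 KO 1 and on Ccnb1 without day 35 KO 1 or 2. Those on Top2a and Mki67 were lost without any of the day 21 KO libraries or day 35 KO 1, 2 or 3, and that on Mki67 also without the second naive KO or the fourth naive WT library. That on Cdk1 was lost without day 21 KO 2, 3 or 4 or any day 35 KO library. That on Ccna2 was lost in 17 of the 30 fits, among them those without any 1 of day 21 KO 1 to 4 or day 35 KO 1 to 3. The other fits that ended it left out naive KO 1, 2 or 3, naive old 1 or 3, naive WT 4, day 21 WT 2 or 3, or day 35 WT 2 or 4.

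Other replication genes behaved likewise between day 21 and day 35 in KO, with 24 of 44 lower and 1 higher, as did 31 of 60 other mitosis genes, all lower. Timeless fell by 2.01 (adjusted p = 3.04e-05) and Pole by 2.16 (0.000441). Among G1 regulators 4 rose and 5 fell: Cdkn1a fell by 1.65 (9.56e-06), and Cdkn1c rose by 1.96 (9.49e-05). Of the markers 5 of 12 monocyte, 7 of 9 T and NK cell and 4 of 10 border macrophage markers fell, and 10 of 12 microglial and 7 of 12 neutrophil markers rose. The part of these cells was not tested. Against naive KO, the day 35 KO libraries had few differences. Pcna rose by 0.79 (SE 0.194, adjusted p = 0.00515) and Ccne1 by 1.52 (SE 0.500, 0.0293), and Ccnd1 fell by 0.43 (SE 0.150, 0.0395). This stood beside 11.6% of all genes called higher and 9.81% lower. The median of the 43 was -0.09. The call on Pcna held in every alternative run. That on Ccne1 was lost without naive KO 1, 2 or 3 or day 35 KO 4, and that on Ccnd1 without naive KO 1 or 2, day 35 KO 1, 2 or 4 or day 35 WT 4. Of the 3 calls 1 was left without naive KO 1, naive KO 2 or day 35 KO 4. Of the markers in that comparison, 8 of 12 microglial markers fell and 1, Cx3cr1, rose (means 168.8 and 952.7 CPM). The microglial sum was 26880 to 28700 CPM in naive KO and 13890 to 20940 CPM in day 35 KO. All 8 astrocyte markers (151.7 to 256.0 and 313.6 to 504.7 CPM), 5 of 6 erythroid (3.35 to 22.5 and 55.7 to 213.0 CPM), 5 of 7 oligodendrocyte lineage and 4 of 4 neuron and neuroblast markers rose. Of 10 border macrophage markers 7 fell and 1 rose, and of 12 neutrophil markers none passed the test. Monocyte sums were 37.3 to 517.6 CPM in naive KO and 979.1 to 1413 CPM in day 35 KO, with 1 of 12 markers higher. The share of mitochondrial counts was 2.45 to 4.89% in naive KO and 6.997 to 8.908% in day 35 KO, and the part of these measures was not tested.

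**Figure D4:**
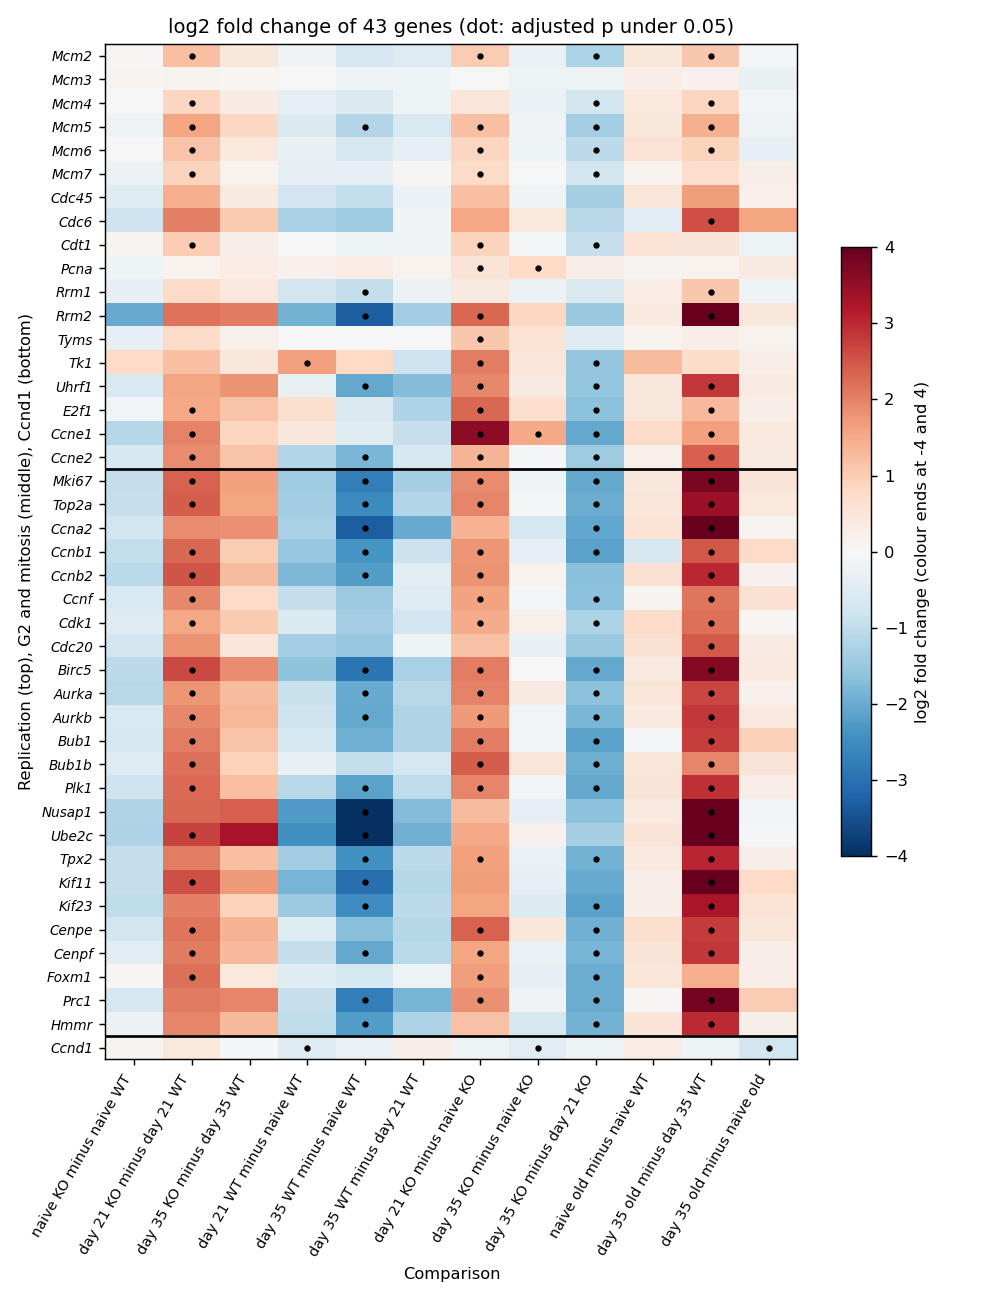
Log2 fold change of the 43 members (rows, grouped by class) in 12 comparisons (columns), with colours that end at -4 and 4 and a dot where the adjusted p is under 0.05. The columns for day 21 KO against day 21 WT and against naive KO are positive in nearly all rows, that for day 35 WT against naive WT is negative in all mitosis rows, and that for day 35 old against day 35 WT rests on 1 library.

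The WT libraries showed few differences in these genes at day 21. In that comparison 1 member was higher and 1 lower than in naive WT, beside 21.5% of all genes called in either direction, and the median of the 43 was -0.82. Tk1 had 0.588, 1.64, 4.04 and 3.14 CPM in naive WT and 9.55, 6.44 and 6.36 CPM in day 21 WT, with no overlap (1.63, SE 0.481, adjusted p = 0.0160). Ccnd1 fell by 0.52 (SE 0.165, adjusted p = 0.0243), from 90.7, 112.8, 77.02 and 84.1 CPM to 73.0, 55.5 and 62.4 CPM, again without overlap. The call on Tk1 was lost without naive WT 1 or day 21 WT 1, and that on Ccnd1 without naive WT 2 or day 21 WT 2 or 3. The number of calls was 10 without day 35 old replicate 1 and 4 without naive WT 1 or day 35 old 2 or 3, and 1 without each of the 4 libraries naive WT 2 and day 21 WT 1, 2 and 3. In the same comparison 11 of 12 neutrophil, 6 of 12 monocyte, 8 of 10 border macrophage, 5 of 6 granulocyte progenitor and 5 of 12 microglial markers fell. The share of mitochondrial counts was 2.14 to 6.73% in naive WT and 6.41 to 8.26% in day 21 WT. The part of these measures in these results was not tested. Of other replication genes 3 fell, of other mitosis genes 1 rose and 2 fell, and Cdkn2d, an inhibitor of Cdk4 and Cdk6, fell by 2.23 (0.00218).

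By day 35 the WT libraries held the least cell cycle RNA of the study, and 22 of 43 members were lower than in naive WT and none was higher, beside 10.7% of all genes lower and 8.40% higher. Of the 22, 5 were replication and 17 mitosis members. The median was -1.66 (-0.61 for replication, -2.24 for mitosis), and 14 members did not overlap, beside 11.9% of all genes. Nusap1, a spindle protein, had 3.53, 8.91, 20.5 and 12.8 CPM in naive WT and 1.57, 0.152, 0.626 and 0.433 CPM in day 35 WT, a fall of 3.99 on the log2 scale (SE 0.894, adjusted p = 0.00417). Ube2c, which helps mark cyclin B for destruction, had 1.76, 4.93, 12.1 and 7.13 CPM in naive WT and 0.858, 0.304, 0 and 0 CPM in day 35 WT, 8 counts in all (-4.38, SE 1.00, adjusted p = 0.00464). In both genes every day 35 WT library lay below every naive WT library.

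Mki67 had 53.2, 151.8, 406.6 and 190.4 CPM in naive WT and 36.8, 41.1, 23.2 and 16.6 CPM in day 35 WT, a fall of 2.77 (SE 0.768, adjusted p = 0.0155). Its groups did not overlap, and naive WT replicate 1 lay near the highest day 35 WT library. Ccna2 (-3.31, 0.0133), Birc5 (-2.92, 0.0147), Top2a (-2.54, 0.0205) and Ccnb1 (-2.38, 0.0278) fell as well, and Cdk1 (-1.36, 0.0577) passed without naive WT 1, naive old 3 or a day 35 old library, with DESeq2 (0.0302) and in a fit on both WT groups alone (0.0368). Of the replication members Rrm1 (-0.96, SE 0.290, 0.0222), Rrm2 (-3.29, SE 0.987, 0.0232), Ccne2 (-1.84, 0.0246), Mcm5 (-1.17, SE 0.363, 0.0260) and Uhrf1 (-2.04, 0.0270) fell. Mcm2 (-0.66, 0.0988), E2f1 (-0.59, 0.217), Ccne1 (-0.48, 0.531), Pcna (0.31, 0.270), Foxm1 (-0.70, 0.336) and Ccnd1 (-0.25, 0.244) did not pass the test.

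Naive WT replicate 3, with the highest neutrophil sum and the highest levels of most members in its group, bore on the fall from naive to day 35 in WT. Without it 2 members were called lower, Nusap1 and Ube2c, and Mki67 had a log2 fold change of -2.16 with an adjusted p of 0.0562. With both that library and day 35 old replicate 1 left out, a choice made after seeing the data, 26 members were called. Without day 35 WT replicates 1, 2, 3 and 4 the counts were 10, 11, 14 and 10, of which 1, 1, 3 and 2 were replication members, and 8 replication members were called without day 35 old 1. Ccna2 and Birc5 also lost their calls without naive WT 3. The calls on Rrm1, Rrm2, Ccne2, Mcm5, Uhrf1, Top2a and Ccnb1 were lost without naive WT 3 or day 35 WT 1. They were also lost without day 35 WT 2 (Rrm1, Rrm2, Mcm5, Uhrf1, Ccnb1), day 35 WT 3 (Rrm2, Ccne2), day 35 WT 4 (Ccne2, Mcm5, Uhrf1, Top2a), naive WT 2 (Rrm1) or naive WT 4 (Ccnb1). Of the markers 11 of 12 neutrophil, 6 of 12 monocyte, 8 of 10 border macrophage, 5 of 6 granulocyte progenitor and 3 of 12 microglial markers fell. Neutrophil sums were 2011 to 16780 CPM in naive WT and 598.5 to 810.2 CPM in day 35 WT, and granulocyte progenitor sums were 32.8 to 346.1 and 0.289 to 0.470 CPM. The share of mitochondrial counts was 2.14 to 6.73% and 4.48 to 6.08%. The part of these markers in the fall was not tested.

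Of other genes, 1 replication gene rose and 5 fell from naive WT to day 35 WT, among them the dUTPase Dut (-1.39, 0.0108), and 17 mitosis genes fell, led by the checkpoint gene Bub3 (-0.73, 0.00237) and the abscission gene Cep55 (-3.52, 0.00513). Cdkn2d fell by 2.43 (0.000991). Between day 21 and day 35 in WT no member passed edgeR's test, beside 0.0648% of all genes called. An unadjusted p under 0.05 was seen in 2 members, beside 935 of the 13880 genes tested, and DESeq2 called 0 members. The median of the 43 was -0.86, E2f1 changed by -1.23 (adjusted p = 0.178), Ccna2 by -2.01 (0.742) and Mki67 by -1.33 (0.850).

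Without EAE, the KO and WT libraries did not differ in any member by edgeR's test, beside 0.288% of all genes called. An unadjusted p under 0.05 was seen in 2 members, beside 1293 of the 13880 genes tested, and DESeq2 called 0 members. The median log2 fold change was -0.62 (-0.21 for replication, -0.80 for mitosis, -0.02 over all genes), with Rrm2 at -2.02 (SE 0.866, adjusted p = 0.486), Ccne1 at -1.15 (0.498) and Mki67 at -0.96 (0.707). These sizes rested in part on naive WT replicate 3: without it the median was -0.17, Rrm2 -1.03, Ccne1 -0.51 and Mki67 -0.35. Without naive WT 1 the median was -0.92 and Rrm2 -2.39, and no member was called with any library left out. The 1 gene of the other cell cycle lists that passed was Cdkn1a, with 9.40 ± 1.15 CPM in WT and 31.7 ± 2.74 CPM in KO (SD, n = 4 each; 1.75, SE 0.244, adjusted p = 0.000373). Neutrophil sums were 2011 to 16780 CPM in naive WT and 637.5 to 3064 CPM in naive KO.

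At day 35 the KO libraries were higher than the WT libraries in 42 of 43 members by the fitted fold change (median 1.05; 0.43 for replication, 1.28 for mitosis). None passed edgeR's test, beside 2.62% of all genes called. In 13 members all KO libraries lay above all WT libraries, beside 7.53% of all genes. An unadjusted p under 0.05 was seen in 13 members, beside 2685 of the 13880 genes tested, and DESeq2 called 4 members. E2f1 had 2.43, 2.59, 1.72 and 1.73 CPM in WT and 3.27, 5.39, 4.51 and 5.59 CPM in KO (1.14, SE 0.322, adjusted p = 0.0511). All KO libraries lay above all WT libraries, and the difference passed without naive WT 1 or 3 or day 35 old 1 or 3, with RLE scaling (0.0472) and with DESeq2 (0.0247). Ube2c differed by 3.31 (0.0845), passing without day 35 old 1 (0.0113), with DESeq2 (0.00482) and in a fit on both groups alone (0.0396), and Mki67 by 1.65 (0.231), with 16.6 to 41.1 CPM in WT and 54.7 to 180.0 CPM in KO. The number of members called was 0 to 3 over the leave-one-out fits. Among G1 regulators Ccng2 fell by 0.50 (SE 0.102, adjusted p = 0.0104), a call lost without day 35 WT 2. At day 35, 5 of 12 neutrophil markers and 1 of 10 border macrophage markers were higher in KO, as were 1 of 6 erythroid and 1 of 7 oligodendrocyte lineage markers, and of 5 endothelial markers 1 was higher and 1 lower. No monocyte or T and NK cell marker passed the test, but monocyte sums were 106.3 to 322.5 CPM in WT and 979.1 to 1413 CPM in KO, most of it Fn1 (mean 164.5 and 995.1 CPM). Erythroid sums (13.4 to 44.9 and 55.7 to 213.0 CPM) and endothelial sums (55.4 to 56.9 and 77.8 to 88.2 CPM) did not overlap either. Neutrophil sums were 598.5 to 810.2 CPM in WT and 666.6 to 3841 CPM in KO, and T and NK cell sums 2.82 to 10.2 and 3.80 to 5.94 CPM. The share of mitochondrial counts was 4.48 to 6.08% in WT and 6.997 to 8.908% in KO, without overlap. The part of these measures in the differences at day 35 was not tested. The EAE score at day 35 was 1.25 ± 0.289 in WT and 2.75 ± 0.204 in KO (SD, n = 4 each), so score and genotype cannot be told apart there. At day 21 it was 2.67 ± 0.577 (n = 3) and 2.94 ± 0.125 (n = 4).

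Whether EAE changed the members differently in KO and WT was tested as an interaction. At day 21 the change from naive was larger in KO for 21 of 43 members and smaller for none, beside 4.72% of all genes called higher and 4.96% lower. The median was 2.54. Ccne1 led with a difference of 3.13 (SE 0.703, adjusted p = 0.00706), which held in every alternative run. It had 23 counts over the naive KO libraries. E2f1 (1.67, SE 0.452, 0.0209), Mcm5 (1.77, 0.0319), Ccne2 (2.52, 0.0397) and Rrm2 (4.21, 0.0431) followed among replication genes, and Birc5 (3.67, 0.0299), Aurka (2.87, 0.0319), Ccnf (2.54, 0.0341), Ube2c (3.97, 0.0354), Ccnb1 (3.27, 0.0367) and Top2a (3.33, 0.0429) among mitosis genes. Mki67 (3.32, 0.0538), Foxm1 (2.17, 0.0516), Cdk1 (2.07, 0.0570), Mcm2 (1.16, 0.0622), Ccna2 (2.67, 0.122), Pcna (0.34, 0.490) and Ccnd1 (0.30, 0.418) did not pass. In both other lists 12 genes passed, all higher, among them Prim2 (1.60, 0.00185) and Mybl2 (3.32, 0.0131).

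These interaction calls depended on the model and the filter: the count of 21 was 5 with the i5 index (a library barcode that the labels give, shared across groups) as a block and 3 without the filter on low counts, against 31 with DESeq2 and 38 in a fit on the groups compared. Many were lost when 1 library was left out. The 21 members became 1 without naive WT 3 or without day 21 WT 2, 2 without day 21 WT 3, 3 without naive KO 4 and 5 without naive WT 4. They became 6 without naive KO 2, 7 without day 21 KO 4, 8 without naive KO 3 or day 21 KO 3 and 9 without day 21 KO 1 or 2. They became 11 without naive KO 1, 12 without day 35 KO 2 and 37 without day 35 old 1. E2f1 lost its call without naive WT 3 or day 21 WT 2, while Ccne1 kept its call in all 30 fits. The calls on the other members named were each lost without naive WT 3, day 21 WT 2 or day 21 WT 3, and that of Mybl2 without naive WT 3 or day 21 WT 3. Calls also ended without naive KO 4 (all of these but Ccnb1), naive KO 1 (Mcm5, Ccne2, Rrm2, Aurka, Top2a), naive KO 2 (Ccne2, Rrm2, Ube2c, Ccnb1, Top2a), and naive KO 3 (Ccne2, Rrm2, Ccnf, Ccnb1, Top2a). They ended without naive WT 4 (Ccne2, Rrm2, Ccnf, Ube2c, Ccnb1, Top2a), day 21 KO 1 (Mcm5, Rrm2, Ube2c, Ccnb1, Top2a), and day 21 KO 2 (Rrm2, Ube2c, Ccnb1, Top2a). The rest ended without day 21 KO 3 (Ccne2, Rrm2, Ccnb1, Top2a), day 21 KO 4 (Ccne2, Rrm2, Ccnf, Ube2c, Top2a), day 35 KO 2 (Rrm2, Top2a), day 21 WT 1 (Rrm2, Ccnb1), naive old 1 (Top2a) and day 35 WT 4 (Rrm2). Mki67 passed without naive WT 1, day 35 KO 4 or a day 35 old library, with DESeq2 (0.0122) and in a fit on the groups compared (0.0136). For the interaction at day 35 no member passed edgeR's test, beside 0.367% of all genes called. In it 21 members had an unadjusted p under 0.05, beside 2473 of the 13880 genes tested. DESeq2 called 4 members, and 10 were called without day 35 old 1. For the interaction between day 21 and day 35 no member passed either, beside 2.67% of all genes called. There 4 members had an unadjusted p under 0.05, beside 2671 of the 13880 genes tested. DESeq2 called 0 members, and 1 was called without day 35 old 1.

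In naive old mice, no member differed from naive young WT by edgeR's test, beside 8.18% of all genes called. An unadjusted p under 0.05 was seen in 4 members, beside 3224 of the 13880 genes tested, and DESeq2 called 1 member. The median was 0.45, and Tk1 had the value 1.27 (adjusted p = 0.0868), which passed without naive WT 3 or day 35 old 1 and with DESeq2 (0.0493). The count was 0 to 2 over the leave-one-out fits, and above 0 without day 35 old 1, naive old 2, naive WT 2 or 3 or naive KO 3. Cdkn2a, a CDK inhibitor known as a marker of cell ageing, was higher in the old mice (0.148 ± 0.171 CPM in young and 3.64 ± 0.927 in old, SD, n = 4 each; adjusted p = 0.000229).

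At day 35 the old mice had 34 of 43 members higher than young WT mice, beside 7.51% of all genes higher and 1.94% lower, and this rested on 1 library. Of the 34, 11 were replication and 23 mitosis members, and the median was 2.50. Mki67 had 1083, 73.7 and 46.9 CPM in the old libraries against 16.6 to 41.1 CPM in WT (3.77, SE 0.818, adjusted p = 0.0104), and Top2a had 292.9, 21.9 and 16.7 CPM (3.43, 0.0116). Ube2c (4.87, SE 1.02, 0.0102) and Kif11 (4.08, 0.0104) were called as well. Replicate 1 lay far above the other old libraries for Mki67 and Top2a. Without it no member was called, and the median was 0.61, Mki67 differed by 1.04 (adjusted p = 0.614), Top2a by 0.92 and Pcna by -0.041. Without day 35 WT 4 the count was 19, with 4 replication members, and without day 35 WT 1 there were 5 replication members. Of the markers 11 of 12 neutrophil, 8 of 12 monocyte and 5 of 6 granulocyte progenitor markers were higher in the old group, with sums of 32190, 4680 and 158.2 CPM in replicate 1. Other lists moved with the members: 8 of 44 replication, 39 of 60 mitosis and 7 of 27 G1 genes were higher. The EAE score was 2.83 ± 0.144 in day 35 old (SD, n = 3) and 1.25 ± 0.289 in day 35 WT (n = 4). Score and age therefore cannot be told apart in this comparison.

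Against naive old mice, day 35 old mice had 1 member lower and none higher, beside 8.03% of all genes lower and 10.4% higher. Ccnd1 had 134.9, 115.3, 112.3 and 80.4 CPM in naive old and 53.3, 71.5 and 74.4 CPM at day 35, without overlap (-0.74, SE 0.165, adjusted p = 0.00337). It kept its call with each library left out, but in a fit on both old groups alone no member was called. The median of the 43 was 0.26. Without day 35 old replicate 1 the median was -1.425, 20 members were called and Mki67 went from 0.53 to -2.20; the count was 2 without naive old 2, naive WT 2, naive KO 4 or day 35 old 2. Whether EAE changed the members differently in old and young WT mice was tested as well. No member passed edgeR's test, beside 0.0432% of all genes called. An unadjusted p under 0.05 was seen in 27 members, beside 1630 of the 13880 genes tested. DESeq2 called 6 members, and 10 were called without day 35 old 3. The median difference was 2.19 and became 0.19 without day 35 old 1. The EAE scores at day 35 differed between old and young WT mice, so score and age cannot be told apart here either.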

How the data were processed

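Libraries came from a stranded total RNA kit for low input (SMARTer Pico), per the labels' protocols, and CASAVA, bcl2fastq, STAR and GRCm38 are named in the submitters' processing notes. The tool versions, counter, strand setting and annotation were not given in the sources used here. Raw read counts per gene were deposited by the authors with a sample sheet that gives an EAE score for each sample; its values are clinical scores per the file headers. Of 32 count columns, 30 matched a sample by title, well and group, and 2 were not used. Gene identifiers were matched to symbols in GENCODE M21, and 45143 of 46078 had one.

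Counts were tested with edgeR 4.0.16 in R 4.3.3 (TMM scaling, genes kept with a minimum count of 10, a quasi-likelihood fit with 1 mean per group, 22 residual degrees of freedom, 16 contrasts, Benjamini-Hochberg adjustment over 13880 genes, threshold 0.05). The SE is the absolute log2 fold change divided by the square root of F. CPM are counts scaled by the TMM-adjusted library size, and levels per kb use the union of exons. Replicate libraries of a group differed beyond counting noise in all 42 pairs (chi-square per gene 3.692 to 93.05). On simulated counts for day 21 KO against WT, 79% of genes changed 2-fold and 99% of those changed 4-fold were recovered over 13650 genes. The changed genes were drawn only from those above a set CPM in day 21 WT. These shares therefore do not describe members below it, such as Ccne1 (mean 2.22 CPM) and Ccnb1 (0.557 CPM). Above that CPM they are averages over genes drawn at random, each with its own spread. They do not give the share of members that would be recovered.

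In every contrast 13 members were described by rule (Mcm2, Mcm5, Pcna, Rrm2, E2f1, Ccne1, Mki67, Top2a, Ccna2, Ccnb1, Cdk1, Foxm1 and Ccnd1), with, per class, up to 5 called members of lowest adjusted p; of other cell cycle lists up to 4 called genes, and of marker lists the sum and up to 2 genes of highest CPM. Cd3e, Ly6g, Csf3r, Cd209f and Ms4a3, and other members outside the rule, were chosen after their values were seen. The members and lists were chosen with earlier results of these data known. Alternatives were DESeq2 1.42.0, RLE scaling, no filter, a fit of only the groups compared, the i5 index as a block, day 35 WT replicate 3 as KO, and each library left out.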

Additional observations from a re-analysis of the deposited data

Results flagged for a closer look

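In groups of 4 libraries, 9 of the 90 sets of values examined had 1 library far from the other 3. The sets share libraries and are not independent, so their number is not set against chance. Mcm2 was 25.28 CPM in naive WT replicate 3, with the others at 12.26 to 12.94. Pcna was 48.33 CPM in day 35 WT replicate 1 (others 28.18 to 30.58), and Cdk1 was 3.146 CPM in the same library (others 1.978 to 2.165). Rrm2 was 28.31 CPM in naive old replicate 4 (others 7.58 to 10.5) and 0.3131 CPM in day 35 WT replicate 3 (others 1.287 to 1.369). E2f1 was 9.578 CPM in day 21 KO replicate 1, the 1 library of that group set low (others 16.14 to 16.68). Mki67 was 477.1 CPM in naive old replicate 4 (others 190.8 to 224.5) and 180.0 CPM in day 35 KO replicate 4 (others 54.67 to 75.62). Naive old replicate 4 also had the highest neutrophil sum of its group, 13672 CPM, against 7417 to 7959 CPM in the others. Its granulocyte progenitor sum was 988.0 CPM, against 150.7 to 219.3 CPM, and the part of these markers was not tested. Top2a was 17.45 CPM in naive KO replicate 4 (others 35.48 to 36.67).

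The change from naive to day 21 differed between the KO and WT libraries in 21 members by the interaction test of edgeR, all with a larger log2 change in KO. That count was 5 with the i5 index as a block and 3 without the filter on low counts, and 1 to 37 with each library left out.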

How the results depend on the processing

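With each library left out in turn, the members called numbered 6 to 39 for day 21 KO against WT, 0 to 3 for day 35 KO against WT, 1 to 10 for day 21 WT against naive WT, 2 to 30 for day 35 WT against naive WT, 1 to 3 for day 35 KO against naive KO, 12 to 37 for day 35 KO against day 21 KO, 0 to 2 for naive old against naive WT, 0 to 37 for day 35 old against day 35 WT and 1 to 20 for day 35 old against naive old. For the interactions they numbered 1 to 37 (genotype, day 21), 0 to 10 (genotype, day 35), 0 to 1 (genotype, day 21 to 35) and 0 to 10 (age). Without the filter they were 13 for day 21 KO against WT, 9 for day 35 WT against naive WT, 17 for day 35 KO against day 21 KO and 3 for the interaction at day 21. With the i5 index as a block they were 17 for day 21 KO against WT, 20 and 2 for day 35 old against day 35 WT and naive old, and 5 for the interaction at day 21. Fitted on only the groups compared, they were 41 for day 21 KO against WT, 3 for day 35 KO against WT, 5 for day 21 WT against naive WT, 0 and 0 for day 35 old against day 35 WT and naive old, and 38 and 2 for the interactions at day 21 and between days 21 and 35. With DESeq2 they were 4 for day 35 KO against WT, 4 for day 21 WT against naive WT, 1 for naive old against naive WT, 4 for the genotype interaction at day 35 and 6 for that with age, and with RLE scaling 1 for day 35 KO against WT. With day 35 WT replicate 3 as KO they were 14 for day 35 WT against naive WT, 1 for day 35 KO against naive KO and 12 for the interaction at day 21. With day 35 old 1 and naive WT 3 both left out, chosen after seeing the data, they were 40 and 13 for KO against WT at days 21 and 35, 6 for day 21 WT against naive WT, 1 for day 35 WT against day 21 WT, 8 for naive old against naive WT, 0 and 27 for day 35 old against day 35 WT and naive old, and 1 each for the genotype interactions at day 35 and between days 21 and 35. With 1 library left out, Ccne1 in day 35 WT against naive WT was -0.778 to 0.163, Pcna in day 35 old against day 35 WT -0.041 to 0.399 and Mki67 in day 35 old against naive old -2.199 to 1.057. Median signs changed for day 35 old against naive old (-1.425 to 0.679) and day 35 KO against naive KO (-0.325 to 0.023), neither tested. Signs reversed for Ccne1 in day 35 WT against naive WT (0.163 without naive WT 3, 0.158 without both), for Pcna in day 35 old against WT (-0.041 without day 35 old 1, and without both) and for Mki67 in day 35 old against naive old (-2.199 without day 35 old 1, and without both). Beyond what the alternatives change by construction, the cause was not tested. No paired analysis was possible because the labels carry no replicate numbers that pair animals; the i5 index block above is the 1 block run. Counts limit several members. In day 35 WT, Ccnb1 and Ube2c had 8 counts each and Nusap1 had 19. Ccne1 had 23 counts in naive KO and Cdc6 had 19 in day 21 WT.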
